A study of Mus musculus with 9 samples.

Results

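The 8 genes described here encode the receptors of the endocannabinoid system and the enzymes that make and break down its lipid messengers. They were taken by symbol from the deposited gene table, and 8 of 8 were found among 18474 protein-coding genes. The members are Cnr1 and Cnr2 (receptors), Dagla and Daglb (synthesis of 2-arachidonoylglycerol, 2-AG), Mgll and Abhd6 (breakdown of 2-AG), and Napepld and Faah (synthesis and breakdown of anandamide). RNA came from mouse hippocampal tissue and was sequenced in 9 libraries, 3 per group, each from 1 wild-type mouse at day 30. The KA+NBP group received KA together with NBP, the KA group an injection of KA, and the sham group sham surgery as its control treatment. The labels do not spell out either agent. KA was taken to be kainic acid, an agonist of glutamate receptors used to model epilepsy, and NBP to be butylphthalide, which the title of the series names. Strain, age, doses and schedules are not given in the sources used here.

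Endocannabinoids are lipids made on demand from the membrane of active postsynaptic neurons. 2-AG is released by diacylglycerol lipase, travels back across the synapse and activates the CB1 receptor on axon terminals, which lowers transmitter release. In the hippocampus CB1 is dense on terminals of cholecystokinin-expressing interneurons and is also present on glutamatergic terminals, while the CB2 receptor belongs mainly to immune cells. The signal ends when serine hydrolases cleave the lipid.

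Library totals ran from 15699251 to 16374637 estimated counts, and 14752 genes, with the 8 members among them, carried enough counts to be tested. CPM below are counts scaled to library totals adjusted by TMM normalization, and the limit that a count of 0 allows (3 counts) was 0.177 to 0.191 CPM by library on that scale, for counting error only. Markers of the hippocampal neuron classes were present in the 9 libraries, with 4 dentate granule cell markers summing to 355 to 476 CPM in KA+NBP, 367 to 415 in KA and 387 to 454 in sham. KA+NBP replicate 2 stood apart from the other KA+NBP libraries. Across the 4961 genes called in KA against sham, its median gene lay 53.1% of the way from the sham mean to the KA mean, while the medians of KA+NBP replicates 1 and 3 lay at -1.34% and -2.17%. Its 5 choroid plexus markers summed to 625 CPM, against 22 to 46.8 CPM in the other 8 libraries. Levels below are TPM, the deposited value scaled for transcript length and depth, listed as replicates 1, 2 and 3, and the mean ± SD has n = 3. Log2 fold changes and their standard errors (SE) come from edgeR's quasi-likelihood test on counts, with p adjusted by Benjamini-Hochberg over the 14752 genes and called below 0.05. In bulk tissue, fewer cells of a type and less RNA per cell cannot be told apart.

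RefSeq promoter windows were at hand for 7 of the 8 members, and 6 are shown, those of the members called in KA against sham: Cnr1, Mgll, Faah and Napepld, which fell, and Cnr2 and Daglb, which rose. Each is the 250 bases before the most upstream RefSeq start on GRCm38.p6, 5′ to 3′ on the gene's strand, a different build from the GRCm39 positions given for the genes below. The windows lie at chr4:33924014-33924263 on the plus strand (Cnr1), chr6:88724162-88724411 on the plus strand (Mgll), chr4:116017925-116018174 on the minus strand (Faah), chr5:21701623-21701872 on the minus strand (Napepld), chr4:135894939-135895188 on the plus strand (Cnr2) and chr5:143464243-143464492 on the plus strand (Daglb). Capitals mark the GC box, GGGCGG or its reverse complement.
Cnr1: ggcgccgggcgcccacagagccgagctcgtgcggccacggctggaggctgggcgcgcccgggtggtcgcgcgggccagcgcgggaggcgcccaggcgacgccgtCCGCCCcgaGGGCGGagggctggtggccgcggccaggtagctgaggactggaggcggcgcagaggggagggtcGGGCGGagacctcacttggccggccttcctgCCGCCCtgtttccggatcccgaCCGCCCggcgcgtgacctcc
Mgll: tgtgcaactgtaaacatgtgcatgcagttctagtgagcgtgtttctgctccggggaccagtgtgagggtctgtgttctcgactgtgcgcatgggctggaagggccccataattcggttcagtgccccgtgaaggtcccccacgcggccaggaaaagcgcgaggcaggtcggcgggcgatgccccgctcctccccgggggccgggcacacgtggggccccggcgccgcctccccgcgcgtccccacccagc
Faah: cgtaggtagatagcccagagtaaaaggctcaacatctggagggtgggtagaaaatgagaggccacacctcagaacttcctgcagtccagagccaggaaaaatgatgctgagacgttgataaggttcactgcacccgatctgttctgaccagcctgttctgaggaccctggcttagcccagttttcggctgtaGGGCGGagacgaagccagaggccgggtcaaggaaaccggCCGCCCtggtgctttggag
Napepld: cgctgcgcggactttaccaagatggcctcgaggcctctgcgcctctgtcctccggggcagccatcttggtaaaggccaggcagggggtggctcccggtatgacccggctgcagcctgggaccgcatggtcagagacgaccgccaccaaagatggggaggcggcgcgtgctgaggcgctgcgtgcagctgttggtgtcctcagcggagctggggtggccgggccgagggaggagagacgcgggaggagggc
Cnr2: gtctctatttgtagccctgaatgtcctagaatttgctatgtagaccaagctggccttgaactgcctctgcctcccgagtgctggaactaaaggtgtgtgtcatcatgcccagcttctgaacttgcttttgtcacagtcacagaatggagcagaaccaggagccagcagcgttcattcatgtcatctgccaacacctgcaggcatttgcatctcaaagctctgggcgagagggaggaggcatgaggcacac
Daglb: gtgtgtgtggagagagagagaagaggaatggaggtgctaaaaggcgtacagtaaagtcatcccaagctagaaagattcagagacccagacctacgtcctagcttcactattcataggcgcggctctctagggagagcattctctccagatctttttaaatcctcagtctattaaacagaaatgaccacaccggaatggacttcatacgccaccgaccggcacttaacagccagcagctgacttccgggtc
The Cnr1 window held 5 GC boxes and the Faah window 2, while the windows of Mgll and Napepld, which also fell, held 0, as did those of Cnr2 and Daglb. The windows of the 2 later Cnr1 starts held 0 as well, and that of the later Mgll start held 1. Of 32851 RefSeq windows of this length, 32.7% hold the motif. G and C made up 79.2% of the Cnr1 window, 68.0% of the Mgll window, 55.6% of the Faah window, 69.6% of the Napepld window, 51.6% of the Cnr2 window and 49.2% of the Daglb window, beside a median of 52.4% over the RefSeq windows. On both strands, the cyclic AMP response element TGACGTCA (in 1.55% of windows), the AP-1 site TGANTCA (6.75%) and the EGR site GCGNGGGCG (4.7%, which can overlap a GC box) were not found in these 6 windows. This says only that these letters are absent from these stretches.

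KA against sham asked what KA had left changed by day 30. Of the 8 members 5 fell and 2 rose, and Abhd6 did not pass. That is 7 called of 8, where 33.6% of the tested genes were called, 19.0% higher and 14.6% lower. The members were chosen with earlier results of these data known, so counts here and in the later comparisons only describe them. Cnr2, among the 7, passed the filter on low counts through the KA libraries. The KA and sham libraries did not overlap in normalized CPM for 7 members, as for 56.3% of the tested genes. The median log2 fold change of the members was -0.45, and that of the tested genes 0.010. The 2 that rose were the CB2 receptor gene Cnr2 and the lipase gene Daglb.

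**Figure D1:**
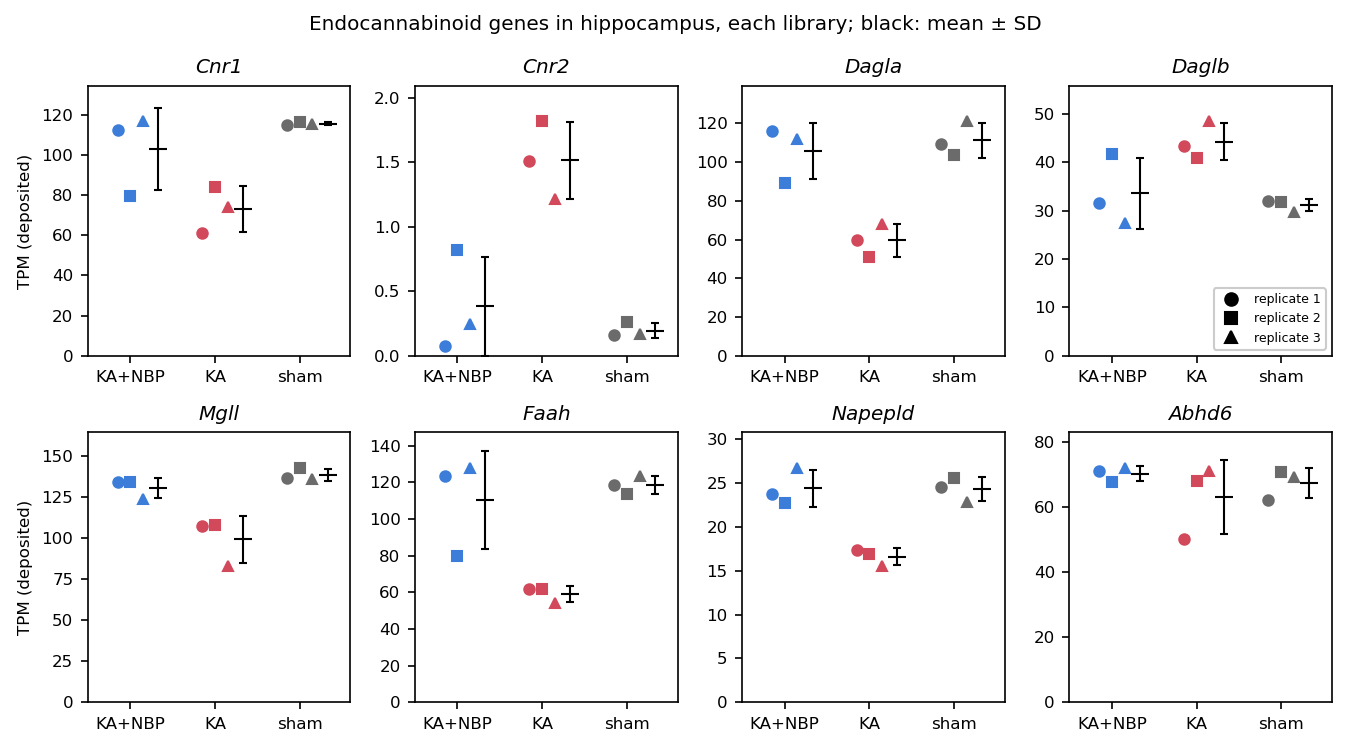
Deposited TPM of each member (vertical axis, from 0) in the 9 libraries, grouped as KA+NBP, KA and sham, with replicate shown by symbol and the black bar giving mean ± SD (n = 3). Faah stands at 54.0 to 61.8 TPM in KA and at 114 to 124 TPM in sham, and KA+NBP replicate 2 lies nearer to the KA mean than to the sham mean for Cnr1, Daglb and Faah (the lower SD bar of Cnr2 in KA+NBP runs below 0 and is cut off there).

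The receptors moved in opposite directions. Cnr1, which encodes the CB1 receptor (Gene ID 12801, chromosome 4, 33923171 to 33948831 on GRCm39), stood at 112, 79.6 and 117 TPM in KA+NBP, at 61.1, 84.0 and 74.0 TPM in KA and at 115, 116 and 115 TPM in sham. Sham mice were close together, the 3 KA libraries were lower without overlap, and KA+NBP replicate 2 fell among the KA libraries. Cnr1 averaged 73.0 ± 11.5 TPM in KA and 115 ± 0.734 TPM in sham, a log2 fold change of -0.59 (SE 0.16, edgeR adjusted p = 0.0227), or 0.664-fold. Leaving out KA replicate 1 (adjusted p = 0.0723) or 3 (0.0561), or sham replicate 1 (0.0654), 2 (0.0516) or 3 (0.0681), ended this call, while the direction held in each case.

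Cnr2, which encodes the CB2 receptor of immune cells (Gene ID 12802, chromosome 4, 135622500 to 135647530), was the scarcest member. It stood at 0.08, 0.82 and 0.25 TPM in KA+NBP, at 1.51, 1.82 and 1.22 TPM in KA and at 0.16, 0.26 and 0.17 TPM in sham. These levels rest on 2, 20 and 6 counts in KA+NBP, 41, 48 and 32 in KA and 4, 6 and 4 in sham, so the gene passed the filter on low counts through the KA libraries. Every KA library was above every sham library, and KA+NBP replicate 2 lay between. The log2 fold change of KA against sham was 3.04 (SE 0.62, adjusted p = 0.00692). From 121 counts in KA and 14 in sham the ratio was 8.61, with a 95% interval of 4.94 to 16.2 that covers counting error only. With limma on TPM the log2 fold change was 2.45.

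Microglia, the resident immune cells of the brain and a site of CB2, had raised markers in the same libraries. Of 8 microglia markers 7 rose in KA against sham, with sums of 1220 to 1260 CPM in KA and 339 to 403 CPM in sham, and none of the 8 was at 0 throughout. Per 1000 CPM of that sum Cnr2 read 1.61 to 2.33 CPM in KA and 0.671 to 0.927 CPM in sham, which did not overlap. The 4 B cell markers in the table, from another cell type that carries CB2, had too few counts to be tested. They summed to 0.432 to 0.798 CPM in KA and 0.125 to 0.435 CPM in sham, with overlap. In KA+NBP they summed to 0.445, 2.26 and 0.188 CPM, with replicate 2 the highest of the 9 libraries. The 8 markers of other infiltrating leukocytes summed to 0.191, 11.98 and 0.251 CPM in KA+NBP, to 6.91, 4.60 and 3.51 CPM in KA and to 0.998, 1.37 and 2.70 CPM in sham. KA lay above sham without overlap, and KA+NBP replicate 2 was the highest of the 9 libraries. Of these 8 markers 3 could be tested, and none was called. Those 3 had a median log2 fold change of 3.87 in KA against sham. KA and sham did not overlap for them, as for 56.3% of the tested genes. In sham replicate 3 most of the sum was S100a8 (1.38 CPM) and S100a9 (0.816 CPM). S100a8 was lower in KA than in sham, at 0.236, 0.307 and 0.123 CPM in KA. The part of any of these cell types in the Cnr2 result was not tested.

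The diacylglycerol lipase genes diverged. Dagla, whose enzyme makes the 2-AG of synapses in the adult brain (Gene ID 269060, chromosome 19, 10222629 to 10282323), stood at 116, 89.4 and 112 TPM in KA+NBP, at 59.9, 50.9 and 68.0 TPM in KA and at 109, 103 and 121 TPM in sham. The KA libraries were the lowest of the 9, and KA+NBP replicate 2 was below every sham library but above every KA library. Dagla averaged 59.6 ± 8.54 TPM in KA and 111 ± 8.997 TPM in sham, a log2 fold change of -0.82 (SE 0.14, adjusted p = 0.0039), or 0.566-fold.

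Daglb, the paralogue with a larger known role in microglia and macrophages (Gene ID 231871, chromosome 5, 143450239 to 143490197), went the other way. It stood at 31.6, 41.65 and 27.4 TPM in KA+NBP, at 43.3, 40.9 and 48.5 TPM in KA and at 32.0, 31.7 and 29.7 TPM in sham. KA exceeded sham without overlap, and the TPM of KA+NBP replicate 2 fell within the KA range. The log2 fold change of KA against sham was 0.58 (SE 0.13, adjusted p = 0.00957), or 1.50-fold. Per 1000 CPM of the microglia sum Daglb read 40.6 to 50.1 CPM in KA and 92.7 to 113 CPM in sham. KA was thus lower on that scale without overlap, as for every member but Cnr2. The microglia sum was itself higher in KA (1220 to 1260 CPM, 339 to 403 CPM in sham), so an unchanged gene reads lower on that scale. The uncalled Abhd6 read 34.9 to 49.7 CPM in KA and 141 to 151 CPM in sham. How many tested genes lie apart on the microglia scale was not computed. The part of microglia in the Daglb result was not tested.

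As a result of both changes the makeup of the lipase transcripts differed. Dagla formed 58.0, 55.4 and 58.4% of the summed TPM of Dagla and Daglb in KA, against 77.3, 76.5 and 80.3% in sham. In KA+NBP it formed 78.6, 68.2 and 80.3%. KA minus sham was -20.8 percentage points, and the exact two-sided permutation test gave p = 0.1, the smallest value that 3 against 3 libraries allow. KA+NBP minus KA was 18.4 points (exact permutation p = 0.1), again without overlap, and KA+NBP minus sham was -2.36 points with overlap (exact permutation p = 0.9).

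**Figure D2:**
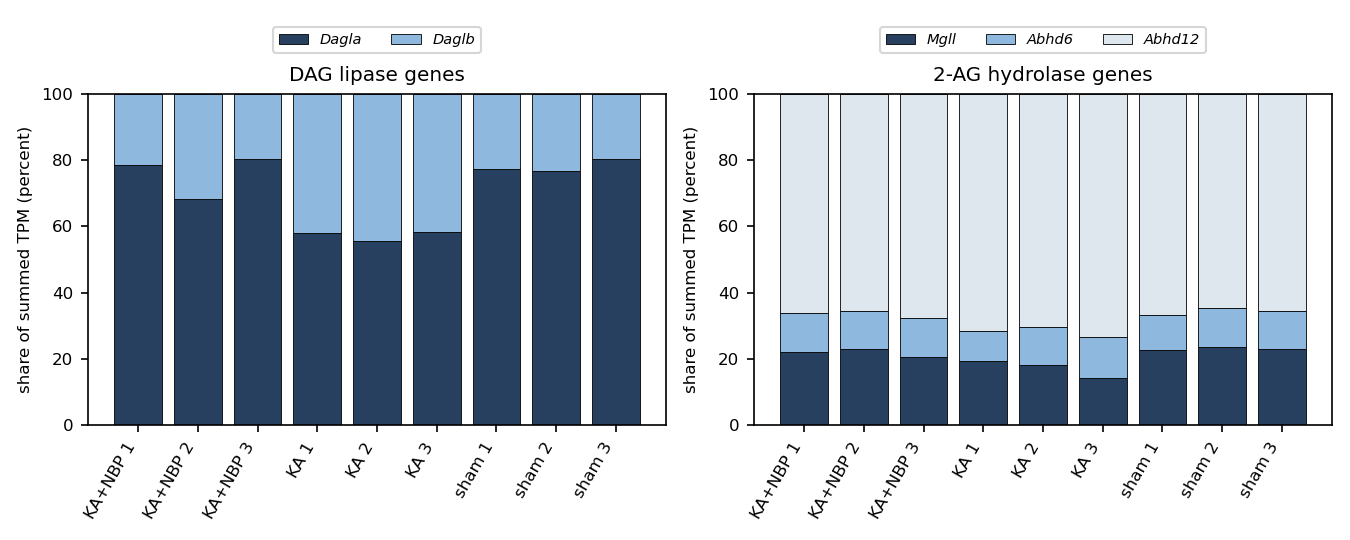
Share of summed TPM (percent, from 0 to 100) in each of the 9 libraries for the diacylglycerol lipase genes Dagla and Daglb and for the 2-AG hydrolase genes Mgll, Abhd6 and Abhd12. Dagla takes 55.4 to 58.4% in KA and 76.5 to 80.3% in sham, and Mgll takes 14.4 to 19.4% in KA and 22.8 to 23.6% in sham.

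Of the 2-AG hydrolase genes, Mgll was lower in KA and Abhd6 was not called. Mgll encodes monoacylglycerol lipase, the main 2-AG hydrolase of brain (Gene ID 23945, chromosome 6, 88701381 to 88805342), and stood at 135, 134 and 124 TPM in KA+NBP, at 107, 108 and 83.0 TPM in KA and at 137, 143 and 136 TPM in sham. The KA libraries were lowest, and the KA+NBP libraries lay just under the sham range. Mgll averaged 99.6 ± 14.4 TPM in KA and 139 ± 3.85 TPM in sham, a log2 fold change of -0.41 (SE 0.095, adjusted p = 0.0111), or 0.750-fold.

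Abhd6 encodes a membrane hydrolase that degrades 2-AG in postsynaptic neurons (Gene ID 66082, chromosome 14, 14389800 to 14466885). It stood at 70.9, 67.6 and 72.0 TPM in KA+NBP, at 50.1, 67.9 and 70.9 TPM in KA and at 62.2, 70.8 and 69.2 TPM in sham. One library, KA replicate 1, was below the rest, and the groups overlapped. The log2 fold change of KA against sham was -0.036 (SE 0.12, adjusted p = 0.845), with a 95% interval of -0.31 to 0.24. Its estimated counts carried fractions in 8 of 9 libraries, a sign of reads shared with other features, which no other member had.

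Abhd12, a further 2-AG hydrolase, is named as the third gene of the hydrolase sum and was not called in KA against sham (log2 fold change 0.12, SE 0.070). Mgll formed 19.4, 18.1 and 14.4% of the summed TPM of Mgll, Abhd6 and Abhd12 in KA, against 22.8, 23.6 and 22.9% in sham. In KA+NBP it formed 22.2, 22.9 and 20.5%. KA minus sham was -5.81 percentage points and KA+NBP minus KA was 4.57 points, both without overlap and both at exact permutation p = 0.1, the smallest possible. KA+NBP minus sham was -1.24 points, with overlap (exact permutation p = 0.2).

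Both anandamide genes fell in KA. Faah encodes fatty acid amide hydrolase, which ends anandamide signalling (Gene ID 14073, chromosome 4, 115853865 to 115876034), and stood at 124, 79.9 and 128 TPM in KA+NBP, at 61.8, 61.7 and 54.0 TPM in KA and at 119, 114 and 124 TPM in sham. KA libraries were near one level, and KA+NBP replicate 2 lay between them and sham. Faah averaged 59.2 ± 4.47 TPM in KA and 119 ± 4.99 TPM in sham, and its log2 fold change of -0.93 (SE 0.17, adjusted p = 0.00475), or 0.526-fold, was the largest fall among the members.

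Napepld encodes the phospholipase D that releases anandamide from its membrane precursor (Gene ID 242864, chromosome 5, 21867899 to 21906620). It stood at 23.7, 22.65 and 26.7 TPM in KA+NBP, at 17.4, 16.9 and 15.5 TPM in KA and at 24.5, 25.5 and 22.8 TPM in sham. KA lay below both other groups without overlap. Napepld averaged 16.6 ± 0.972 TPM in KA and 24.3 ± 1.36 TPM in sham, a log2 fold change of -0.48 (SE 0.089, adjusted p = 0.00506), or 0.718-fold.

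Some neuronal marker lists were lower beside these 5 members and others were mixed. Of 8 pan-neuronal markers 5 fell in KA against sham, with sums of 4840 to 5470 CPM in KA and 6620 to 7010 CPM in sham. Of 6 GABAergic interneuron markers 4 fell, with sums of 926, 1109 and 1110 CPM in KA and 1131, 1179 and 1111 CPM in sham, which nearly touch. The other GABAergic markers did not fall. Gad1 read 347.4, 436.5 and 419.6 CPM in KA and 348.6, 355.9 and 340.9 CPM in sham. Gad2 read 168.6, 228 and 311.7 CPM in KA and 155.5, 169.5 and 149.4 CPM in sham. Of 4 CA1 pyramidal cell markers 3 fell, with sums of 363 to 462 CPM in KA and 611 to 692 CPM in sham. Of 6 CA3 and CA2 pyramidal cell markers 2 rose and 2 fell, with overlapping sums of 333 to 579 CPM in KA and 419 to 437 CPM in sham, and of the 4 dentate granule cell markers 1 rose and 2 fell. Per 1000 CPM of the pan-neuronal sum, Faah read 15.8 to 19.1 CPM in KA and 24.3 to 26.0 CPM in sham, and Dagla 21.2 to 30.0 CPM in KA and 33.5 to 38.4 CPM in sham. Cnr1 read 29.3 to 35.5 CPM in KA and 36.5 to 38.7 CPM in sham on that scale. These 3 genes stayed apart. Mgll read 23.7 to 32.5 CPM in KA and 27.8 to 30.4 CPM in sham, with overlap. Napepld read 4.58 to 5.33 CPM in KA and 4.80 to 5.53 CPM in sham, also with overlap. The pan-neuronal sum was itself lower in KA, so an unchanged gene reads higher on that scale. The other members lay higher in KA without overlap. These were Daglb (9.36 to 11.7 CPM in KA, 5.16 to 5.64 in sham), Cnr2 (0.378 to 0.538, 0.0356 to 0.0564) and the uncalled Abhd6 (8.79 to 11.7, 7.33 to 8.6). The share of tested genes that stay apart on this scale was not computed. Of 6 cholecystokinin basket cell markers, with Cnr1 among them, 3 fell and 0 rose in KA against sham (median log2 fold change -0.65). Cnr1 is itself 1 of these 3, so this count and median are not separate from its own fall. The 5 other than Cnr1 summed to 164 to 246 CPM in KA and 203 to 222 CPM in sham, with overlap. Most of that sum was Cck, at 210.9, 122.5 and 165.3 CPM in KA and 157, 143.2 and 154.8 CPM in sham. Astrocyte markers, with 7 of 8 higher in KA, summed to 11100 to 13600 CPM in KA and 5080 to 5560 CPM in sham. The part of any cell type in these results was not tested.

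KA+NBP against KA asked whether NBP given with KA altered the state left by KA. Of the 8 members 4 were higher and 2 lower in KA+NBP, 6 called of 8, where 22.7% of the tested genes were called, 10% higher and 12.7% lower. The groups did not overlap in normalized CPM for 6 members, as for 36.6% of the tested genes (Daglb overlapped in TPM). Since the KA libraries are shared with KA against sham, opposite signs in the 2 comparisons are not separate evidence.

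**Figure D3:**
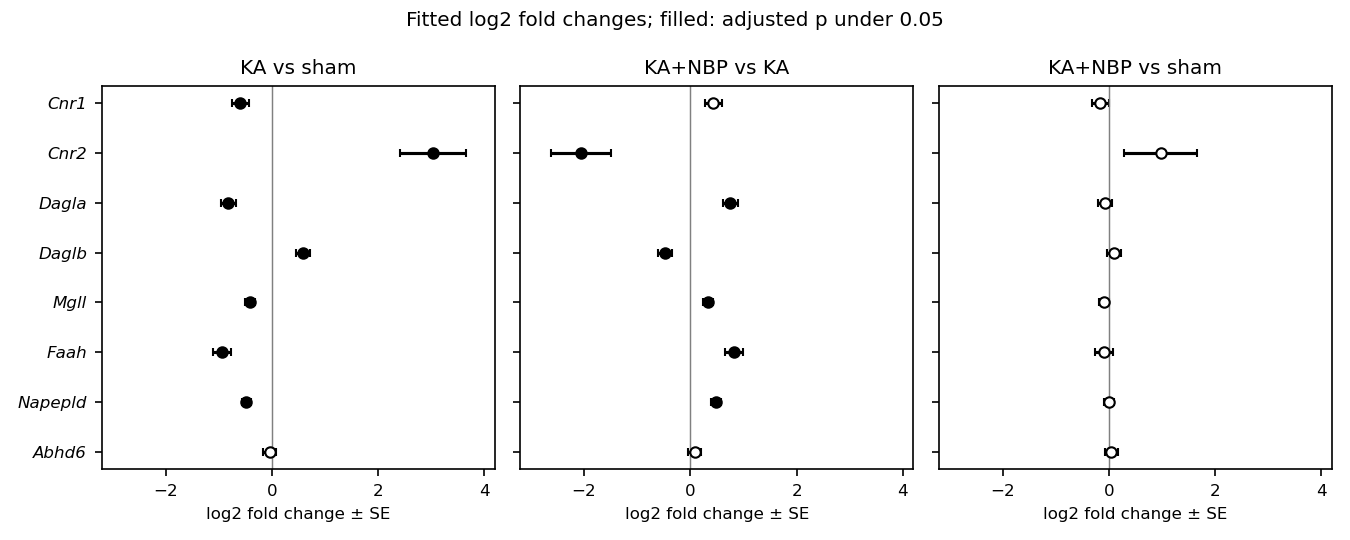
Fitted log2 fold change ± SE (horizontal axis) of the 8 members in KA against sham, KA+NBP against KA and KA+NBP against sham, with filled points for adjusted p under 0.05. In KA against sham 5 members lie below 0 and 2 above among the filled points, in KA+NBP against KA 4 lie above and 2 below, and in KA+NBP against sham none is filled.

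Faah was higher in KA+NBP by a log2 fold change of 0.83 (SE 0.17, edgeR adjusted p = 0.0114), with means of 111 ± 26.7 TPM in KA+NBP and 59.2 ± 4.47 TPM in KA. Dagla was higher by 0.75 (SE 0.14, adjusted p = 0.00862), with means of 106 ± 14.3 TPM in KA+NBP and 59.6 ± 8.54 TPM in KA. Napepld was higher by 0.48 (SE 0.089, adjusted p = 0.00808), with means of 24.3 ± 2.10 TPM in KA+NBP and 16.6 ± 0.972 TPM in KA. These 3 calls held when any 1 of the 9 libraries was left out, with adjusted p of at most 0.0469, 0.0371 and 0.0312.

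The other calls of this comparison were less firm. Mgll was higher in KA+NBP (log2 fold change 0.33, SE 0.095, adjusted p = 0.0374) and lost its call without any 1 of the libraries apart from KA+NBP replicate 2 and KA replicate 2 (adjusted p = 0.0512 to 0.12). Daglb was lower in KA+NBP (-0.48, SE 0.13, adjusted p = 0.0287) and lost its call without KA+NBP replicate 1 or 3, KA replicate 1 or 3, or sham replicate 2 (adjusted p = 0.0535 to 0.0974). Cnr2 was lower in KA+NBP (-2.06, SE 0.56, adjusted p = 0.0305), with 28 counts in KA+NBP and 121 in KA, and lost its call without any 1 of the libraries apart from KA+NBP replicate 2 (adjusted p = 0.0515 to 0.098). Its log2 fold change was -3.24 without KA+NBP replicate 2 and ran from -3.24 to -1.60 with 1 library left out. With the 6 KA+NBP and KA libraries fitted alone, Cnr2 (adjusted p = 0.0889), Daglb (0.095) and Mgll (0.0967) were not called. In this comparison 7 of 8 microglia markers were lower in KA+NBP and 4 of 8 pan-neuronal markers higher. Per 1000 CPM of the microglia sum Cnr2 read 0.376 to 1.93 CPM in KA+NBP and 1.61 to 2.33 CPM in KA, with overlap, and the part of these cell types was not tested.

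Cnr1 did not pass in KA+NBP against KA (log2 fold change 0.43, SE 0.16, adjusted p = 0.0844). Its KA+NBP libraries at 112 and 117 TPM were above the KA range of 61.1 to 84.0 TPM, and replicate 2 at 79.6 TPM was inside it. Without KA+NBP replicate 2 the log2 fold change was 0.60 (adjusted p = 0.00144), and 7 members were called. DESeq2 called Cnr1 with the 9 libraries (0.44, adjusted p = 0.0433). Abhd6 did not pass (0.083, SE 0.12, adjusted p = 0.656), with a 95% interval of -0.19 to 0.36.

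KA+NBP replicate 2 lay at unlike positions between sham and KA from member to member, and for Mgll it lay between the other KA+NBP libraries. On a log2 CPM scale where 0% is the mean of sham and 100% that of KA, it lay at 96.3% for Cnr1, 66.4% for Faah, 65.2% for Cnr2 and 65.1% for Daglb. For Dagla it lay at 43.3%, for Napepld at 29.6% and for Mgll at 24.4%. KA+NBP replicate 1 lay between -27.1% (Cnr2) and 6.41% (Daglb) over these 7 members, and replicate 3 between -32.6% (Napepld) and 31.3% (Mgll). The Cnr2 value of replicate 1 rests on 2 counts and depends on the prior count added to log2 CPM. On this scale the KA libraries themselves ran from 66.9 to 143% for Cnr1 and from 67.7 to 157% for Mgll. Cnr1 was thus at the KA level in 1 of 3 KA+NBP mice and at the sham level in the other two, while for Mgll replicate 3 lay further from sham than replicate 2. The summed microglia markers ran from 304 to 634 CPM in KA+NBP and the pan-neuronal sum from 5620 to 7000 CPM, and their part in this spread was not tested.

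**Figure D4:**
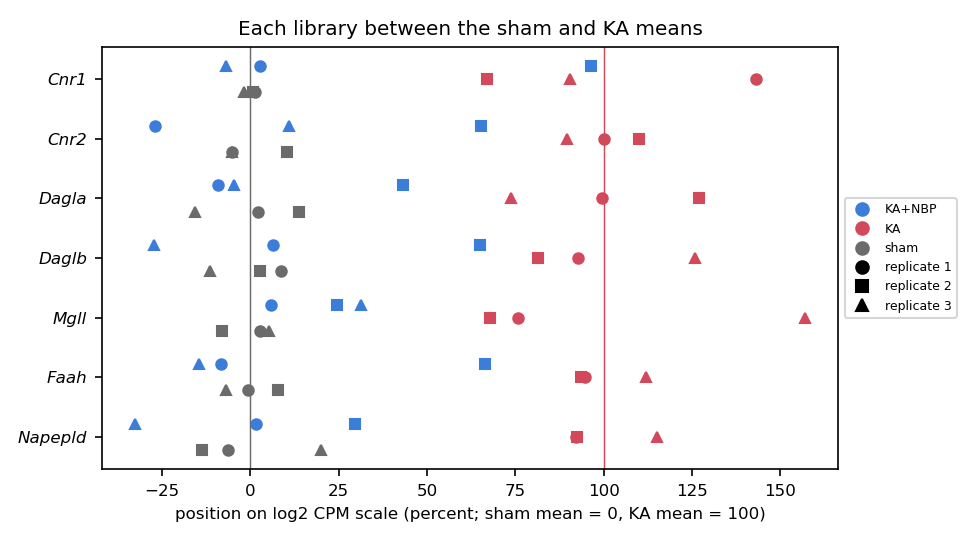
Position of each library on the log2 CPM scale of each member (horizontal axis, percent, where 0 is the mean of sham and 100 that of KA), for the 7 members called in KA against sham, with groups by colour and replicates by symbol. The square of KA+NBP replicate 2 runs from 24.4% for Mgll to 96.3% for Cnr1, and the 3 KA libraries of each member scatter around 100%.

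KA+NBP against sham asked whether mice given both agents differed from controls. Called members numbered 0 of 8, and 0% of the 14752 tested genes were called by edgeR, DESeq2 or limma, with 248 genes at an unadjusted edgeR p under 0.05. The log2 fold changes were -0.16 for Cnr1 (95% interval -0.52 to 0.21), -0.072 for Dagla (-0.39 to 0.24) and -0.098 for Faah (-0.47 to 0.28). For Daglb the interval was -0.19 to 0.40, for Mgll -0.30 to 0.13, for Napepld -0.19 to 0.20 and for Abhd6 -0.23 to 0.32. The Cnr2 interval was the widest, at -0.59 to 2.54, so a several-fold difference was not excluded. Its KA+NBP libraries held 2, 20 and 6 counts, so they differed among themselves. From 28 counts in KA+NBP and 14 in sham the ratio was 2.02, with a 95% interval of 1.03 to 4.15. That interval covers counting error only and leaves out the spread between mice. Mgll was the 1 member whose groups did not overlap, at 124 to 135 TPM in KA+NBP and 136 to 143 TPM in sham, where 6.37% of the tested genes did not overlap.

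The order of levels, compared per length in TPM, shifted with the group. In KA, Mgll was highest at 99.6 TPM, followed by Cnr1 (73.0), Abhd6 (63.0), Dagla (59.6) and Faah (59.2), each overlapping the next, then by Daglb (44.2), Napepld (16.6) and Cnr2 (1.52), each apart from its neighbour above. In KA+NBP the order was Mgll (131), Faah (111), Dagla (106) and Cnr1 (103), each overlapping the next, then Abhd6 (70.2), Daglb (33.5), Napepld (24.3) and Cnr2 (0.383) without overlap. In sham, Mgll (139) stood alone, Faah (119), Cnr1 (115) and Dagla (111) overlapped in turn, and Abhd6 (67.4), Daglb (31.1), Napepld (24.3) and Cnr2 (0.197) were each apart. Abhd6 was below Cnr1, Dagla and Faah without overlap in sham, but overlapped with each of them in KA.

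Beyond the 8 members, 51 other genes of the pathway could be tested, of which 16 rose and 13 fell in KA against sham, where 33.6% of the tested genes were called (19.0% higher, 14.6% lower). In KA+NBP against KA 12 of the 51 were higher and 11 lower, where 22.7% of the tested genes were called. The counts by list below, such as 7 of 17 enzyme genes, stand beside these shares and no list was tested as a set. Upstream of 2-AG, Gq-coupled receptors and phospholipase C beta supply the diacylglycerol that the lipases use, and 7 of 12 such genes fell and 3 rose (median log2 fold change -0.38). Among those that fell were Grm5, a metabotropic glutamate receptor gene (-0.81, SE 0.094), and Homer2, which encodes a scaffold of such receptors (-1.20, SE 0.15). Of the 12, in KA+NBP against KA, 6 were higher and 3 lower (median 0.30).

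Among 17 other enzyme genes of 2-AG and anandamide turnover 6 rose and 1 fell in KA (median 0.37), and 1 was higher and 3 lower in KA+NBP against KA. Inpp5d, a lipid phosphatase gene of immune cells that is also placed on a side route to anandamide, rose by 1.87 (SE 0.22), and Abhd4, an enzyme of another such route, by 1.07 (SE 0.18). Plaat1, an acyltransferase gene of this family of routes, fell by 0.81 on the log2 scale (SE 0.12). The intracellular carriers rose in 4 of 5 cases (median 0.39), with the fatty acid binding protein genes Fabp5 at 0.39 (SE 0.11) and Fabp7 at 0.63 (SE 0.18) and the sterol carrier gene Scp2 at 0.33 (SE 0.097). In KA+NBP against KA 2 of the 5 carriers were lower.

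Partners of the CB1 receptor fell in 2 of 3 cases in KA, Sgip1, whose product slows CB1 internalization, by 0.29 on the log2 scale (SE 0.065) and Gprasp1, which encodes a receptor-sorting protein, by 0.31 (SE 0.079). Cnrip1, whose product binds the CB1 tail, read 0.091 (SE 0.069, adjusted p = 0.339). Sgip1 and Gprasp1 were the 2 of the 3 that were higher in KA+NBP against KA.

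Downstream of CB1, where Gi/o proteins inhibit adenylyl cyclase and open potassium channels, 3 of 11 genes rose and 3 fell in KA (median 0.086). The adenylyl cyclase gene Adcy2 (-0.63, SE 0.075) and the potassium channel gene Kcnj6 (-0.71, SE 0.094) fell, and the G protein gene Gnai2 (0.59, SE 0.099) rose. In KA+NBP against KA 3 were higher and 3 lower.

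Of the other receptors for such lipids, 3 of 6 had enough counts and none was called in KA against sham. Gpr55 (1.68, SE 0.73, adjusted p = 0.102), Pparg (0.58, SE 0.36, adjusted p = 0.24) and Ppara (0.045, SE 0.17, adjusted p = 0.858) did not pass. Trpv1, an ion channel gated by anandamide, had 29 counts over the 9 libraries and was not tested. In KA+NBP against sham 0 of the 51 genes were called.

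**Figure D5:**
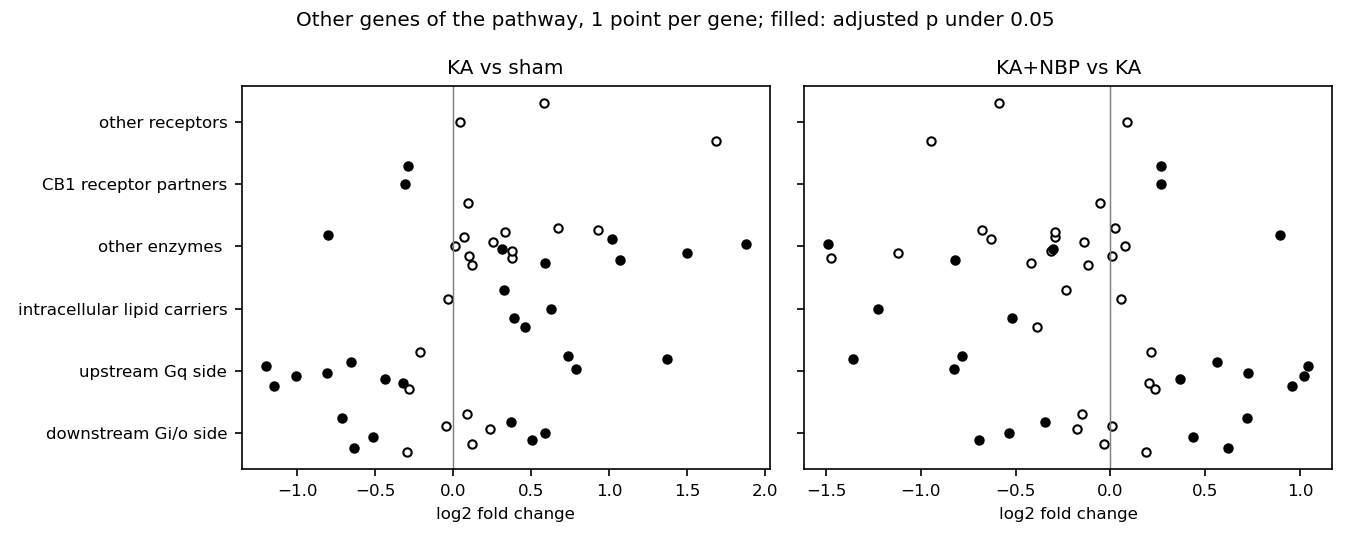
Fitted log2 fold change (horizontal axis) of the 51 other tested genes of the pathway in KA against sham and KA+NBP against KA, 1 point per gene in rows by role, filled where adjusted p is under 0.05. On the upstream Gq side 7 filled points lie below 0 and 3 above in KA against sham, and the intracellular lipid carriers have 4 filled points above 0.

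The nearest profiles to each member were sought among 14336 tested genes by the root mean square difference of log2 CPM, each gene centred on its own mean over the 9 libraries, which share the group means. Cnr1 was closest to Neto1 (0.058), Elfn1 (0.060) and Opcml (0.071), with its own spread around its mean at 0.32. Faah was closest to Wasf1 (0.040), Camk2a (0.042) and Camta2 (0.058), with a spread of 0.46. Dagla was closest to Olfm1 (0.089), Nptx1 (0.090) and Baiap2 (0.093), with a spread of 0.41. The 3 sets did not share a gene.

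Daglb was closest to Rasa3 (0.055), G6pdx (0.059) and Ache (0.059), with a spread of 0.29, and Mgll to Spata7 (0.034), Cir1 (0.049) and Klf12 (0.053), with a spread of 0.21. For Napepld the nearest were Phlpp2 (0.046), Smpd4 (0.047) and Zdhhc23 (0.052), with a spread of 0.24. Cnr2 was closest to Ptprc, Ncf4 and Samsn1 (0.24 each), with a spread of 1.3. Abhd6, with a spread of 0.15, was closest to Zscan22 (0.058), Smarca1 (0.061) and Ubxn2b (0.063). These distances describe the 9 libraries and carry no test.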

How the data were processed

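Total RNA of 9 hippocampal samples was sequenced, and 1 deposited table gives for each gene and library an estimated count, a TPM and an FPKM. Estimated counts were deposited by the authors without depth scaling, and fractional values made up 5.65 to 6.61% per library. TPM and FPKM, deposited by the authors, are by definition scaled for transcript length and depth. Bowtie2, RSEM 1.3.1 and DESeq2 1.4.5 with GRCm39 are named, without their roles, per the submitters' processing notes. Groups and replicate numbers come from the sample titles.

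Rounded counts entered edgeR 4.0.16 (R 4.3.3) after filterByExpr (minimum count 10) and TMM (factors 0.975 to 1.04), with all 9 libraries in 1 model with a mean per group. The SE is the absolute log2 fold change divided by the square root of F. Log2 CPM took a prior count of 2. The fit was tested on simulated counts for KA against sham only. Those counts had an equal spread for all genes and no library apart from its group, unlike KA+NBP replicate 2. DESeq2 1.42.0 and limma 3.58.1 on log2(TPM + 0.1) served as alternatives, with other filters, size factors, subsets and a replicate block. Shares of TPM were compared by exact permutation.

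The members and lists were chosen with earlier results of these data known. All 8 members are named, with up to 3 genes of smallest p per pathway list and the 3 nearest profiles per member. One gene that this rule selects is not reported here. Abhd12, Trpv1 and the marker sums were added to these. The labels give no meaning to replicate numbers. In the values, same-number KA+NBP and sham libraries deviated together (correlations 0.301, 0.332 and 0.126), although KA+NBP 3 correlated more with sham 1 (0.192) than with sham 3, and those with a KA library did not (-0.045 to 0.0447). Promoter windows are RefSeq's on GRCm38.p6.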

Additional observations from a re-analysis of the deposited data

How the results depend on the processing

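Of 383 alternative values of the members' fold changes, 341 kept their direction and their side of the threshold, 29 lost a call, 3 gained one and 10 changed sign. Called members ranged from 6 to 7 in KA against sham with 1 library left out, from 3 to 7 in KA+NBP against KA and stayed at 0 in KA+NBP against sham. Over the tested genes, calls ranged from 2721 to 6700 in KA against sham (2721 without sham replicate 1, 2762 without sham replicate 3), from 1295 to 6355 in KA+NBP against KA (1295, 1510 and 6355 without KA+NBP replicate 1, 3 and 2, and 2053, 2067 and 1741 without KA replicate 1, 2 and 3) and from 0 to 1 in KA+NBP against sham. With only the 6 libraries of KA+NBP and KA, 3 members and 1065 genes were called. The sign changes were those of values that were not called. With 1 library left out, Abhd6 ran from -0.14 to 0.11 in KA against sham and from -0.060 to 0.18 in KA+NBP against KA, with both sign changes without KA replicate 1. In KA+NBP against sham the log2 fold changes ran from -0.27 to 0.014 for Cnr1, -0.20 to 1.44 for Cnr2, -0.15 to 0.054 for Dagla, -0.058 to 0.22 for Daglb and -0.23 to 0.11 for Faah, with each sign change without KA+NBP replicate 2. There Napepld ran from -0.075 to 0.075 (below 0 without KA+NBP replicate 3 or sham replicate 3, -0.041 in that case) and Abhd6 from -0.000534 to 0.088 (below 0 without sham replicate 1). Leaving out a library gave share differences from -6.87 to -4.34 points (Mgll) and -21.6 to -19.7 (Dagla) in KA against sham, 3.1 to 5.63 and 16.1 to 22.2 in KA+NBP against KA, and -1.74 to -0.569 and -4.67 to 1.38 in KA+NBP against sham. With limma on TPM, Daglb in KA+NBP against KA had adjusted p = 0.0531 and Cnr1 adjusted p = 0.0437. Adding replicate number as a block, for which the pairing of KA+NBP and sham libraries has its source in the values, called 7, 6 and 0 members in the 3 comparisons and changed no call of a member. The cause of these differences was not tested.

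Limits are the 3 mice per group, the spread of KA+NBP replicate 2, the low counts of Cnr2 and the shared reads of Abhd6. No dissection or surgery record was used here, and TPM and counts cover whole genes without isoforms.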
